A study of Mus musculus with 6 samples.

Results

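The genes described here are 37 genes of the cell cycle, chosen by name for their roles in G1, S, G2 and M phase. A gene was read from probe sets annotated to its symbol alone. That left 35 measured genes, out of 19938 genes read the same way. Ccnb1 is not listed in the annotation used here, and the only probe set for Cdkn1a is shared with another gene, so neither is given a value. Expression was measured in 6 mouse heart samples with 1 Affymetrix Mouse Gene 1.0 ST array each, and the levels are log2 values. All animals were 6 months old (postnatal day 180).

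Id1 and Id3 are inhibitors of helix-loop-helix transcription factors. The study deleted a floxed Id1 allele in blood vessels of mice that lack Id3 in all cells. WT was 1 wild-type heart. Id control 1 had the genotype Id1F/+Id3-/-, with 1 floxed Id1 allele, no Cre named and no functional Id3. Id control 2 was Tie2Cre+Id1-/-Id3+/-, which lacks Id1 in all cells, keeps 1 working Id3 allele and carries Cre. The Id cKO heart was Tie2Cre+Id1F/-Id3-/-, so that 1 Id1 allele is null, the other is floxed, and Id3 is lost throughout the animal. The Tie2 promoter drives Cre in endothelium and also in many blood cells, and the floxed Id1 allele should stay intact in heart muscle cells. Another 2 Id cKO samples, called hearts below, form an incubated pair, 1 treated with recombinant mouse IGFBP3 and 1 untreated. It is not stated whether this pair comes from 2 animals or from 1 divided heart. Their labels name no alleles, and no dose, duration or strain is given in the sources used here. Per the design text, duplicates or more were compared, but here only the Id control group has 2 arrays, and the number of animals behind a sample is not stated. The p-values below therefore measure the spread between these arrays, which may be technical. That spread comes from the Id control pair alone, so it also holds the difference of genotype between these 2 hearts. Heart tissue of mixed cell types was profiled, so fewer cells of a type and less RNA per cell cannot be told apart. The labels do not say which part of the heart was taken.

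A cell enters the cycle when D-type cyclins with Cdk4 or Cdk6, and then cyclin E with Cdk2, inactivate the retinoblastoma proteins and release E2F factors. E2F factors switch on the MCM helicase and the enzymes that supply and copy DNA. Cyclin A, cyclin B with Cdk1 and the mitotic kinases then carry the cell through G2 and M phase. Most heart muscle cells leave the cycle soon after birth, and the kinase inhibitors Cdkn1b (p27), Cdkn1c (p57) and Cdkn2c (p18) help to hold cells outside it. Proliferation in an adult heart is known mainly from endothelial cells, fibroblasts and immune cells.

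Promoters of G2 and M phase genes are known to share a pair of elements, the cell cycle genes homology region (CHR) and the CCAAT box, whereas many S phase genes carry E2F sites. RefSeq promoter windows of GRCm38.p6 (250 bases before to 50 after the start) were at hand for 29 of the 37 genes, in 33 windows. Both strands were searched for the CHR (TTTGAA or TTTAAA), for CCAAT and for E2F sites (TTTCGCGC, TTTGGCGC, TTTCCCGC or TTTGGCGG). A CHR match was present in 11 of 12 windows of the G2 and M phase genes, against 27.6% of all 32851 windows. CCAAT was present in 11 of those 12, against 37.4%, and both together in 10 of 12, against 10.7%. E2F matches were present in 4 of 9 windows of the MCM helicase and S phase genes, against 2.37%. Matches of different motifs overlapped in 1 member window, and E2F matches overlapped each other in 2. A match is a description of the letters and not a binding site. The windows below are shown because the values below turn on these genes, and because they show the motif classes side by side. They give the 250 bases before the start, with CHR, CCAAT and E2F matches in capitals.
Mki67 (chr7:135716380-135716629, minus strand): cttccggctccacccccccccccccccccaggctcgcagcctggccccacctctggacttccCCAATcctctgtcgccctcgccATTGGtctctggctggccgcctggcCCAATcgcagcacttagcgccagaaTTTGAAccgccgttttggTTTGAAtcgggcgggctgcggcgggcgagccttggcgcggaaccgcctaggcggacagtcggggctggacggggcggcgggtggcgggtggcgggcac
Cdk1 (chr10:69352913-69353162, minus strand): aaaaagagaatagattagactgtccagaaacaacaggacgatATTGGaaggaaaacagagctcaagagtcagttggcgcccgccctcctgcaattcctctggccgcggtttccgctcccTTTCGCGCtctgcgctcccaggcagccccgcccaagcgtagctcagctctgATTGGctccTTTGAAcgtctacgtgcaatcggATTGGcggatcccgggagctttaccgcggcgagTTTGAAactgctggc
Mcm7 (chr5:138171884-138172133, minus strand): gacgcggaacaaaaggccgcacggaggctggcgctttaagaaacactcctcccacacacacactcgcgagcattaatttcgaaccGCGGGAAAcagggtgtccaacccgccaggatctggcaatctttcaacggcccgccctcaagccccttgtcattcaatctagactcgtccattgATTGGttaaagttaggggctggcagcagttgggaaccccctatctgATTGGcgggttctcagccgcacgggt
Mcm5 (chr8:75109259-75109508, plus strand): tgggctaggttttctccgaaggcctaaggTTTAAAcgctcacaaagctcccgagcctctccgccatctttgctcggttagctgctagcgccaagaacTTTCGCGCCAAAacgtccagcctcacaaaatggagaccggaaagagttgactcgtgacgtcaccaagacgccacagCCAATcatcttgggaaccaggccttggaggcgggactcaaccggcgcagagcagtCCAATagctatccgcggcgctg
Cdk6 (chr5:3343643-3343892, plus strand): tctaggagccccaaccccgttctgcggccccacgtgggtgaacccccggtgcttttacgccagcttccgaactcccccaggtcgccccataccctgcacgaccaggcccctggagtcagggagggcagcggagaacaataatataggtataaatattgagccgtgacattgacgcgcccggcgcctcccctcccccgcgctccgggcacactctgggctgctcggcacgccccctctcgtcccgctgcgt
The Mki67 stretch holds CHR and CCAAT matches, and that of Cdk1 holds both and an E2F match. Mcm7 shows E2F and CCAAT matches, Mcm5 has all 3 kinds, and Cdk6 has none.

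G2 and M phase genes were dim in the adult heart, while most G1 and helicase genes were not. As deposited, 20 of the 35 reached a level of 6 on at least 1 array, which is 57.1% against 58.8% of all genes. On all 4 arrays outside the incubated pair 16 reached it, 45.7% against 51.5% of all genes. All 5 D-type cyclins and partner kinases reached 6, as did all 3 measured kinase inhibitors and 8 of the 9 S phase genes, all but Rrm2. Of the 5 genes for cyclins E and A, Cdk2 and E2f1, only Cdk2 and Ccne1 did. Of the 13 measured G2 and M phase genes only Aurka and Cdc20 did, and the other 11 stayed below 6 on every array. Ccne1 (WT and Id cKO), Mcm3 (both Id controls), Tyms (Id cKO) and Aurka (WT and Id cKO) crossed 6 on some of the 4 arrays but not all. A level near background understates a fold difference, so the dim genes below are read as values only.

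**Figure D1:**
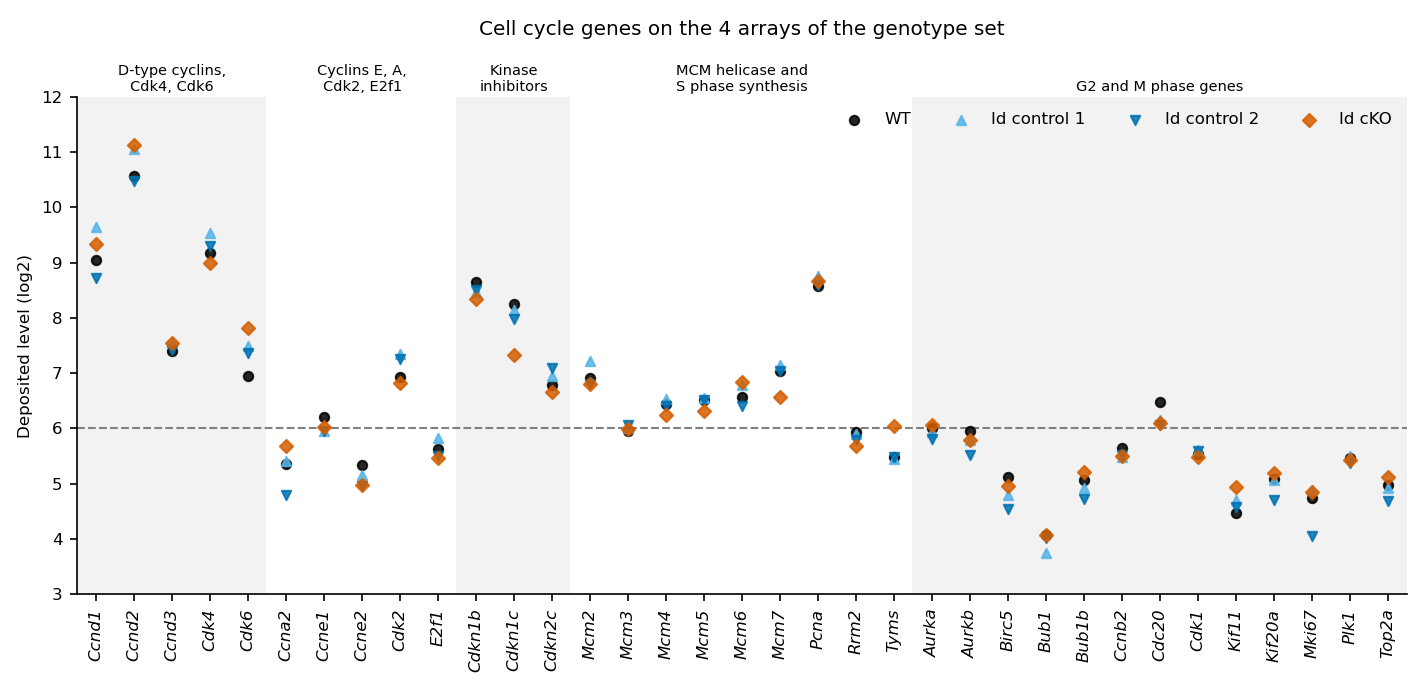
Deposited log2 level (vertical axis) of the 35 measured cell cycle genes, grouped by role, in WT, Id control 1, Id control 2 and Id cKO, 1 point per heart. The dashed line marks 6, which 5 of 5 D-type cyclins and kinases reach and 2 of 13 G2 and M phase genes reach.

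The arrays differ in ways that touch these genes. Heart muscle markers were high on every array, with Myh6 between 12.48 and 13.71. Id1 had levels of 8.14 (WT) and 8.10 (Id control 1), against 6.41 in Id control 2 and 6.48 in Id cKO. Id3 was at 7.18 and 7.32 in WT and Id control 2, against 5.02 in Id control 1 and 4.69 in Id cKO. Igfbp3 itself was at 11.60 in Id cKO and 7.75 to 7.89 in the 3 other hearts of that set. The array medians of the pair were 4.45 and 4.51, against 5.73 to 5.83 elsewhere, so levels were compared between the 2 sets of arrays only after quantile normalization, which gives all arrays 1 distribution. On that scale Id1 was at 6.50 on the treated array and 6.51 on the untreated one, above Id control 2 (6.00) and Id cKO (6.07) and below WT (7.79) and Id control 1 (7.68). Id3 was at 5.03 with treatment and 4.74 without, against 4.24 in Id cKO, 4.58 in Id control 1, and 6.81 and 6.90 in WT and Id control 2. Igfbp3 was at 10.68 and 10.69 on the pair, against 11.22 in Id cKO and 7.38 to 7.47 in the others. Xist and the Y-linked Eif2s3y showed a male pattern in WT and in the incubated pair, and a female pattern in both Id controls and in Id cKO. Id control 2 held atrial transcripts, with Myl7 at 12.27 against 5.28 in WT, 5.31 in Id control 1 and 5.38 in Id cKO. Labels give Id control 1 another date code than WT, Id control 2 and Id cKO. The incubated pair shares a date code that none of the other arrays has. Between the Id controls 28 of 35 cell cycle genes were higher in Id control 1, 80% against 52.5% of all genes, with a median difference of 0.14. This gap between the controls includes all 5 D-type cyclins and kinases, led by Ccnd1 (0.92).

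Comparing the Id cKO heart with WT and with the Id controls asks how proliferation genes differ in a heart with vascular deletion of Id1 on top of a general loss of Id3. The list as a whole lay close to all genes. None of the 35 was 2-fold from WT, where 1.96% of all genes were, and none was 2-fold from both Id controls, where 0.672% were. The median difference of the list was -0.062 against WT (all genes -0.029) and -0.0016 against Id control (all genes -0.00041). Of single genes, Cdk6 was more than 1.5-fold above WT (4.65% of all genes were) and Cdkn1c more than 1.5-fold below it (2.89%). Cdkn1c alone was 1.5-fold below both Id controls, where 1.46% of all genes were. Id cKO was above WT for 15 of 35 genes, 42.9% against 45.3% of all genes. It lay above both Id controls for 14 (35.6% of all genes did) and below both for 12 (36.3% of all genes). It lay above all 3 other hearts for 10 (24.7% of all genes) and below all 3 for 11 (28.3%). These shares are near the background. In limma over the 6 arrays, 0 of the 18 members tested against WT and 0 of the 17 tested against Id control passed an adjusted p of 0.05, where 0.0272% and 0.0183% of all genes did. At an unadjusted p under 0.05 the counts were 3 of 18 (12.8% of all genes) and 3 of 17 (13.5%). Only the Id control pair gives limma a spread, so the lone arrays are assumed to vary like it, and the SE holds the gap between 2 genotypes, date codes and atrial contents.

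**Figure D2:**
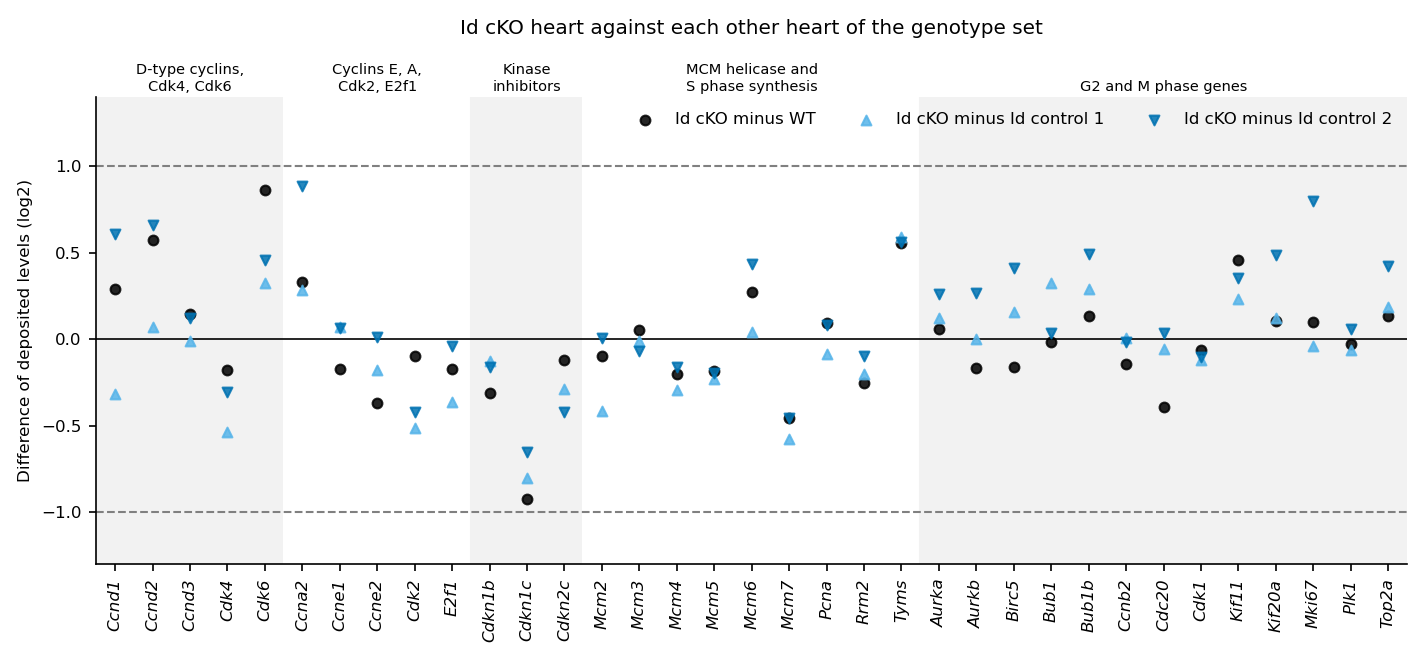
Difference of deposited log2 levels (vertical axis) between the Id cKO heart and WT, Id control 1 and Id control 2, for each of the 35 genes, 1 point per pair of hearts. Dashed lines mark 2-fold, which no point reaches; Cdkn1c lies furthest below 0 and Tyms lies above 0 by 0.56 to 0.59 in all 3.

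Among the D-type cyclins and their kinases, Cdk6 was higher in Id cKO than on the other 3 arrays of its set. Levels of this kinase were 6.96 (WT), 7.50 (Id control 1), 7.36 (Id control 2) and 7.82 (Id cKO). No other heart overlapped with Id cKO, but WT also lay below both Id controls. The difference was 0.86 ± 0.17 against WT (limma SE, adjusted p = 0.199), and 0.39 ± 0.15 (limma SE) against Id control with an adjusted p of 0.377. Cdk4, the other partner of D-type cyclins, was lowest in Id cKO, at 8.99, against 9.17 in WT and 9.53 and 9.30 in the Id controls. Its difference from Id control was -0.42 ± 0.17 (limma SE, adjusted p = 0.393). Ccnd2, the D-type cyclin of many stromal and muscle cells, had levels of 10.56, 11.06, 10.48 and 11.14 in that order of hearts. Here Id control 1 came within 0.072 of Id cKO. Ccnd1 was at 9.04, 9.65, 8.73 and 9.33, so Id cKO lay between the controls. Ccnd3 was at 7.40, 7.56, 7.43 and 7.55, with all hearts close together.

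All 3 measured kinase inhibitors were lowest in Id cKO, and Cdkn1c was furthest from the others. Cdkn1c, an imprinted gene whose protein binds cyclin-kinase complexes, measured 8.26 in WT, 8.14 in Id control 1, 7.99 in Id control 2, and 7.33 in the Id cKO heart. The 3 other hearts lay within 0.27 of each other and none overlapped with Id cKO. The difference was -0.92 ± 0.17 against WT (limma SE, adjusted p = 0.194). Against Id control it was -0.73 ± 0.15 with an adjusted p of 0.240, the smallest of the 17 members tested there. Cdkn2c, which blocks Cdk4 and Cdk6, was at 6.79, 6.95, 7.08 and 6.67 in the same order of hearts. Its gap to the nearest heart, WT, was 0.12, about the gap of 0.13 between the Id controls. Cdkn1b was at 8.65, 8.47, 8.50 and 8.34. A second Cdkn1b probe set placed Id cKO differently, at 6.63 against 6.56 and 6.37 in the Id controls and 7.29 in WT.

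Of the cyclin E and A group, Cdk2 had levels of 6.93 in WT, 7.34 and 7.25 in Id controls 1 and 2, and 6.83 in the Id cKO heart. It was -0.47 ± 0.14 (limma SE) from Id control, adjusted p = 0.323, but only -0.095 from WT. Ccna2, the cyclin of S phase and G2, was dim and highest in Id cKO, at 5.69 against 5.35, 5.40 and 4.80 in WT and the Id controls. Ccne1, which starts S phase with Cdk2, was at 6.20, 5.96, 5.96 and 6.03 in WT, the 2 Id controls and Id cKO. E2f1 ranged from 5.46 to 5.82, with the Id cKO heart lowest.

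Several helicase genes were lowest in Id cKO, Mcm7 by the widest margin. Mcm7, a subunit of the ring that unwinds DNA, gave 7.03 for WT, 7.15 for Id control 1, 7.03 for Id control 2 and 6.58 for Id cKO. The other 3 hearts lay within 0.12 of each other and Id cKO lay below all of them. The difference was -0.46 ± 0.17 against WT (limma SE, adjusted p = 0.379) and -0.52 ± 0.15 against Id control (adjusted p = 0.306). Mcm4 (6.44, 6.53, 6.40 and 6.24) and Mcm5 (6.51, 6.55, 6.52 and 6.32) were also lowest in Id cKO, by 0.16 and 0.19 from the nearest heart. Mcm6 went the other way, at 6.57, 6.79, 6.40 and 6.84, Mcm2 was at 6.91, 7.22, 6.80 and 6.81, and Mcm3 was at 5.94, 6.01, 6.07 and 6.00. Of the 9 S phase genes, 5 lay below both Id controls and 2 above, Mcm6 and Tyms (median -0.15), where 36.3% and 35.6% of all genes did. Tyms, which makes thymidylate for DNA synthesis, was at 6.04 in Id cKO, against 5.48 in WT and 5.45 and 5.48 in Id controls 1 and 2. Those 3 hearts lay within 0.029 of each other, and the gap of 0.56 put Id cKO alone at a level of 6. As its mean over the groups was under 6 it was left out of the limma test, and with no floor its adjusted p against Id control was 0.382. Pcna, the sliding clamp, was at 8.58, 8.75, 8.59 and 8.67. Its 2 probe sets differed by at most 0.012 on any array, and they may read a near-identical copy of the gene.

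Among G2 and M phase genes most were above the Id controls in the Id cKO heart. Of the 13, 8 lay above both Id controls and 1 below, where 35.6% and 36.3% of all genes did. The median difference was 0.19, against -0.00041 for all genes. Against WT 6 were higher and 7 lower, with a median of -0.016, and that direction turned after rescaling, where 8 or 9 of 13 were higher. Against Id control 9 of 13 group differences were above 0 as deposited and under each rescaling. Mki67, whose protein marks cycling cells, was at 4.75 in WT, 4.88 in Id control 1, 4.04 in Id control 2 and 4.84 in Id cKO, so only Id control 2 stood apart. Among the brightest of the others, Aurkb spanned 0.44 over the 4 hearts, Ccnb2 0.15, Cdk1 0.12 and Plk1 0.12. Cdk1, the kinase that drives entry into mitosis, was at 5.54, 5.60, 5.58 and 5.48, lowest in Id cKO. Ccnb2, its cyclin partner, was at 5.64, 5.49, 5.51 and 5.49, highest in WT. Aurka was at 6.00, 5.94, 5.80 and 6.06, close to the line of 6. Kif11, Bub1b, Top2a and Kif20a are named because of their values. Kif11, the motor that separates the spindle poles, was at 4.47, 4.70, 4.58 and 4.93, and Bub1b, a spindle checkpoint kinase, at 5.07, 4.92, 4.72 and 5.21. Kif11, Bub1b, Top2a, Kif20a and Aurka were highest in Id cKO of the 4 hearts, with gaps to the nearest heart of 0.23, 0.14, 0.13, 0.11 and 0.059. A second, dimmer Top2a probe set placed Id cKO lowest, at 1.85 against 2.06 in WT and 2.40 and 1.91 in the Id controls. Cdc20, which activates the anaphase complex, was highest in WT, at 6.49 against 6.15 and 6.06 in Id controls 1 and 2 and 6.09 in Id cKO. Endothelial markers were above the Id controls too, and they also lay above WT, in 9 of 10 cases (median 0.50). Their mean level was 9.65 in Id cKO against 9.10 in WT, 9.16 in Id control 1 and 9.12 in Id control 2, and 9 of 10 lay above both Id controls. Macrophage markers had a mean of 7.19 in Id cKO against 7.33 in WT and 7.58 and 7.59 in the Id controls, with 1 of 10 above both. Fibroblast markers were above both in 1 of 8. T and B cell markers were dim, with 1 of 8 measured markers reaching 6 on any array and 5 of 8 above both Id controls. The part of these cells in the result was not tested.

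Setting the Id controls beside WT asks what the loss of other Id alleles does. None of the 35 genes was 2-fold from WT on both Id controls, where 0.12% of all genes were, and 0 of 17 tested members passed limma, as did 0% of all genes, with 1 of 17 at an unadjusted p under 0.05 (7.12% of all genes). Both Id controls lay above WT for 11 members and below WT for 15, where 34.6% and 38.1% of all genes did. D-type cyclins and kinases had higher group means in all 5 cases (median 0.21), with both controls above WT in 3. Ccnd1 was 0.61 above WT in Id control 1 and 0.32 below it in Id control 2. The member with the smallest p was Cdk6, 0.47 ± 0.15 (limma SE) above WT, adjusted p = 0.644. Of the 13 G2 and M phase genes 9 lay below WT on both controls and 2 above, Cdk1 and Kif11 (median -0.20). After rescaling the median was nearer to 0, at -0.096 with quantile normalization, -0.10 with median centring and -0.088 with cyclic loess. Group differences below 0 numbered 11 of 13 as deposited and 10 under each rescaling. Birc5, an inhibitor of cell death that also acts in mitosis, was at 5.11 in WT, with 4.79 and 4.54 for Id controls 1 and 2, and is named for its values. Markers of several cell types differed between the same hearts. Red cell and platelet markers had a mean of 7.81 in WT against 6.90 and 6.81 for Id controls 1 and 2, and 5 of 6 were lower. Fibroblast markers were higher in 8 of 8 cases (median 0.82), with means of 8.42 in WT and 8.94 and 9.70 in the controls. Smooth muscle and pericyte markers were higher in 7 of 8 (median 0.50) and macrophage markers in 8 of 10 (median 0.31), while endothelial markers were higher in 5 of 10. The part of these cells in the result was not tested. The WT heart alone of these 3 had the male pattern, so sex and genotype cannot be told apart here.

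The treated and untreated Id cKO hearts ask whether IGFBP3, a secreted binder of insulin-like growth factors, alters the knockout heart. Of the 35 genes 2 were at least 2-fold apart, both higher with IGFBP3, where 0.893% of all genes were 2-fold apart and 0.436% were higher. Each group was 1 array, so these differences have no replicate check. Mki67 was at 4.01 with IGFBP3 and 2.87 without, a difference of 1.14. Both values are under the median of their own arrays. Cdkn2c was at 5.83 with IGFBP3 and 4.79 without, a difference of 1.03. A gene that marks cycling cells and a gene that blocks the cycle were thus both higher in the treated heart. Both genes had a pair mean under 6, where 0.718% of genes were 2-fold apart and 0.44% were higher, against 1.22% apart among brighter genes. In limma over the 6 arrays 0 of 8 members bright enough to test passed, as did 0% of all genes. At an unadjusted p under 0.05 there was 1 of 8, Cdkn1b (adjusted p = 0.196), and 21.9% of all genes.

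Other members lay nearer to each other on the pair, and the list median was -0.030 against -0.035 for all genes. Cdkn1b was at 7.52 with IGFBP3 and 6.96 without, and its second probe set at 4.61 and 3.15, so both were higher in the treated heart, by 0.56 and 1.45. With the mean of both probe sets Cdkn1b would also pass 2-fold (1.00). Mcm6 was at 5.69 with IGFBP3 and 5.07 without, the third gene past 1.5-fold, as were 4.77% of all genes in that direction. Tyms was at 4.79 and 4.21, and Cdk2 at 6.04 and 5.55. Differences were also above 0.4 for Cdk1 (0.58) and Rrm2 (0.48), both dim. All 5 D-type cyclins and kinases were lower with IGFBP3 as deposited, where 43.3% of all genes were higher. After median centring 2 of the 5 were higher, as were 52.5% of all genes. Ccnd1 was at 8.52 with and 8.82 without, Ccnd2 at 9.77 and 9.99, and Cdk4 at 8.34 and 8.56. Ccnd3 (6.53 and 6.56) and Cdk6 (6.90 and 6.96) were nearly level. The inhibitor Cdkn1c was at 7.05 and 7.21, and the clamp gene Pcna at 7.34 and 7.25. Of the helicase genes, Mcm2 was at 5.37 and 5.53, Mcm3 at 5.30 and 5.31, Mcm4 at 4.93 and 4.80, and Mcm5 at 4.57 and 4.92. These 4 differed in either direction by 0.34 or less. Ccne1 was at 4.62 and 4.72, Aurka at 3.85 and 3.93, and Cdc20 at 4.36 and 4.65. Of the 13 G2 and M phase genes 5 were higher and 8 lower, where 43.3% of all genes were higher. With cyclic loess this became 7 and 6, where 48.5% of all genes were higher. Plk1, a mitotic kinase, was lowest relative to the untreated heart (-0.42). Mcm7 had the same value, 5.27, on both arrays. Endothelial markers were higher in the treated heart in 9 of 10 cases, with mean levels of 8.90 and 8.65, and T and B cell markers in 1 of 8, with 3.51 and 3.77. Macrophage markers were higher in 2 of 10 and red cell and platelet markers in 5 of 6. Whether they bear on the members was not tested.

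**Figure D3:**
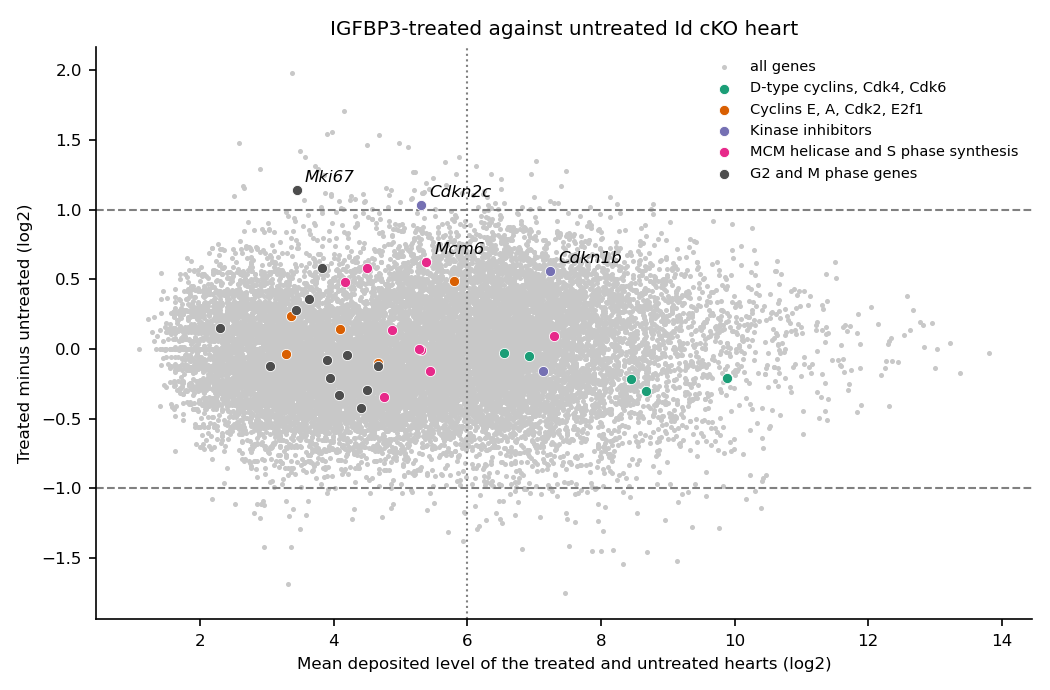
Difference between the treated and the untreated Id cKO heart (vertical axis, log2) against the mean deposited level of the pair (horizontal axis, log2), for all 19938 genes in grey and the 35 cell cycle genes coloured by role. Dashed lines mark 2-fold and the dotted line a level of 6; Mki67 and Cdkn2c lie above the upper dashed line, both left of 6.

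After quantile normalization all 3 Id cKO hearts could be set beside WT and the Id controls. This grouping was chosen once the values were known. The Id cKO hearts lay wholly above the 3 others for 2 members, Cdk6 and Bub1b, where 10.8% of all genes did. They lay wholly below for 8, Ccne2, Cdk1, Cdc20, Mcm4, Mcm5, Mcm7, Rrm2 and E2f1, where 14.9% of all genes did. Cdk6, Bub1b, Mcm4, Mcm5 and Mcm7 kept this separation under median centring and cyclic loess, as did Ccne2, Cdc20 and Rrm2. Of the 8 genes that lay below, 4 belong to the 9 S phase genes. On this scale Cdk6 had 6.58 in WT, 7.09 and 6.93 in Id controls 1 and 2, 7.42 in Id cKO, 7.69 in the treated and 7.77 in the untreated heart. The mean was 7.62 ± 0.18 in the Id cKO hearts against 6.87 ± 0.26 (SD, n = 3 arrays each). Mcm7 had 6.66 in WT, 6.75 and 6.62 in Id controls 1 and 2, 6.16 in Id cKO, and 6.10 and 6.08 in the treated and untreated hearts. The means were 6.11 ± 0.041 and 6.68 ± 0.064 (SD, n = 3 arrays each). The incubated pair counts as 2 of the 3 Id cKO arrays, although it may come from 1 animal.

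For limma on these values the spread was that within the 2 sides, whose arrays differ in genotype, treatment and array set. In this limma fit the Cdk6 difference was 0.76 ± 0.18 (SE), adjusted p = 0.0542, and the Mcm7 difference was -0.56 ± 0.14 (SE), adjusted p = 0.0536. Neither passed, while 4.34% of all 9602 genes tested did. They were the 2 of 13 tested members at an unadjusted p under 0.05, where 26.5% of all genes were. With the array set as a block the values were 0.55 ± 0.23 (adjusted p = 0.469) and -0.52 ± 0.18 (adjusted p = 0.332), and 0.573% of all genes passed. Without the Id cKO heart of the first set, Cdk6 (0.86, adjusted p = 0.00877) and Mcm7 (-0.59, adjusted p = 0.0155) passed in limma. In that subset all Id cKO hearts belong to the incubated pair, array set and genotype cannot be told apart, and 2948 of 9602 genes passed. Mcm5 was at 6.10, 6.15 and 6.12 in WT and the Id controls, 5.91 in Id cKO, and 5.45 and 5.73 in the treated and untreated hearts. Its mean was below the level of 6 needed for the test, and with no floor its adjusted p in limma was 0.183.

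Cdkn1c and Cdk4 stood apart in the first Id cKO heart but not in the same direction in the pair. Tyms stood apart in the first Id cKO heart and, of the pair, in the treated heart alone. Cdkn1c was at 6.92 in Id cKO but at 7.83 in the treated and 8.03 in the untreated heart, beside 7.91 in WT and 7.71 and 7.55 in the Id controls. Cdk4 was lowest in Id cKO (8.61) and highest in the pair (9.13 and 9.42). Tyms was at 5.62 in Id cKO and 5.65 in the treated heart, but at 5.05 in the untreated heart, within the 4.98 to 5.09 of WT and the Id controls. Ccnd1 was highest in the untreated heart, at 9.69, with 9.32 in the treated heart, 8.93 in Id cKO, 9.23 and 8.27 in the Id controls and 8.68 in WT. For the untreated heart against Id control the list median was -0.27, against -0.023 for all genes, and it was 0.0032 for the treated heart, against -0.075. Without Id control 1 the untreated median was -0.075. For the first Id cKO heart it was 0.041, against -0.015. The 3 comparisons share their control hearts.

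**Figure D4:**
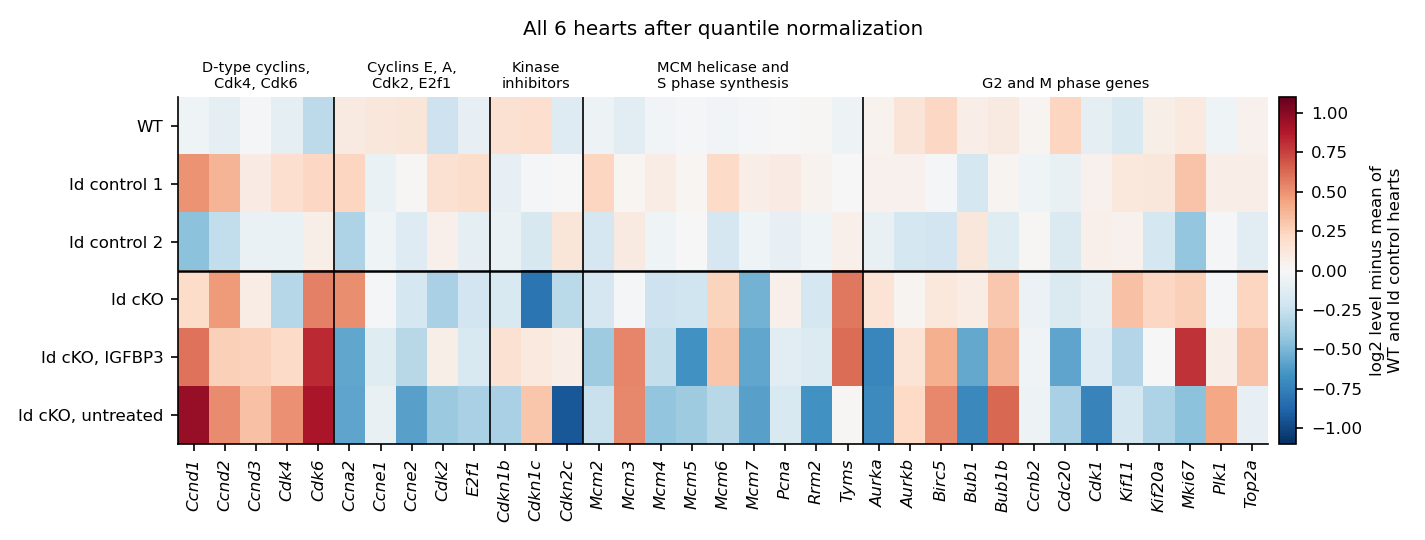
Level of each of the 35 genes (columns, grouped by role) in each of the 6 hearts (rows) after quantile normalization, as the log2 difference from the mean of WT and the Id controls (red higher, blue lower). The 3 lower rows are the Id cKO hearts; Cdk6 is red and Mcm7 blue in all 3, while Cdkn1c is dark blue in the first alone.

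Further cell cycle genes from wider lists gave few large differences. Of 42 other measured S phase and replication genes, 0 were 2-fold apart in any of the 4 comparisons. In limma 21 to 23 of them were bright enough to test in the genotype comparisons and 5 in the incubated pair, and 0 passed. The largest count at an unadjusted p under 0.05 in limma was 3 of 21, in Id cKO against Id control, where 13.5% of all genes were. Of 59 other G2 and M phase genes, 43 had a level in Id cKO above the Id control mean, 72.9% against 49.9% of all genes (median 0.12). Under each rescaling 40 of the 59 were higher, where 44.3% to 47.8% of all genes were. Most of this list was dim, with 13 of the 59 reaching a level of 6 on any array. Against WT 30 of the 59 were higher (median 0.014), and 35 or 36 after rescaling. For Id control against WT 23 of the 59 were higher (median -0.058), and 31 or 32 after rescaling. Cenpf, a kinetochore protein gene, was 2-fold lower in Id cKO than in WT. Its levels were 6.21 in WT, 6.29 in Id control 1, 5.25 in Id control 2 and 4.80 in Id cKO, so that the Id controls differed by more than Id control 2 and Id cKO did. Of 32 other G1 regulators, E2f4, a repressive E2F factor, was 2-fold lower with IGFBP3, at 6.34 against 7.35. Of 16 measured p53 target genes, Plk2 and Phlda3 lay over 2-fold above WT in the Id cKO heart, and Plk2 lay 2-fold above both Id controls too. Of all genes 1.96% and 0.672% were 2-fold apart in either direction. As a list, 10 of the 16 were above WT and 6 below (median 0.066), where 45.3% of all genes were above. Against Id control 8 were above and 8 below (median 0.023). Plk2, a kinase induced by stress, was at 7.36 in WT, 7.77 in both Id controls, and 8.96 in Id cKO. Within the incubated pair, the treated array gave 8.55 for Plk2 and the untreated one 8.10. The Plk2 differences were 1.61 against WT and 1.19 ± 0.14 (limma SE) against Id control, the latter with an adjusted p of 0.164. Phlda3, an inhibitor of Akt signalling, was at 6.91, 7.23, 7.39 and 8.16 in WT, the Id controls and Id cKO. In all 4 comparisons 0 genes of these lists passed limma, which tested only those bright enough. Of the 59 G2 and M phase genes it tested 11 or 12 in the genotype comparisons and 4 in the incubated pair.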

How the data were processed

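Expression was measured with 1 array for each of 6 heart samples in 5 groups, of which only Id control has 2 arrays. The deposited values are log2 levels, made by the authors with RMA in Affymetrix Expression Console according to the submitters' processing notes; no version is stated there. Per the labels, 300 ng of total RNA went into labelling.

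Of 35557 probe sets 21789 carried 1 symbol. Where a gene had several, the brightest on average was used. Counts by size (2-fold, and from both Id control arrays in 1 direction) and medians used all genes. limma (version 3.58.1, R 4.3.3) used 5 group means over 6 arrays, which leaves 1 residual degree of freedom, on genes whose 2 compared group means averaged at least 6. Benjamini-Hochberg adjustment ran over all genes tested, with a limit of 0.05. The number of arrays limits the precision. Every member could be named: those that reached 6 or were 2-fold apart with each array's value, dim ones by the highest level, and from other lists the genes 2-fold apart or past limma. Any other name was chosen after its values were seen. The members and lists were chosen with earlier results of these data known. Alternatives were a level floor, 3 other scalings, averaged probe sets, a 1.5-fold limit, the design text's p limit and leaving out arrays. The comparison of the 3 Id cKO hearts with the 3 others was added after seeing the data. Its limma fit had 2 sides instead of 5 groups, after quantile normalization.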

Additional observations from a re-analysis of the deposited data

How the results depend on the processing

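The counts of members past limma stayed at 0 for Id control against WT and for Id cKO against Id control under the floors, scalings, probe set rule and p limit tried. The smallest adjusted p of a member ranged from 0.407 to 0.716 in the first and from 0.198 to 0.318 in the second. At a 1.5-fold limit 2 members were apart between Id cKO and WT (Cdk6 and Cdkn1c) and 1 between Id cKO and Id control (Cdkn1c). With a floor of 6, and in limma over the 6 arrays, the 2 members counted between the treated and untreated hearts became 0. By construction the floor leaves both out, and limma left both untested, as their pair means were under 6. The floor moved the median member difference to 0.092 for Id control against WT and to -0.14 for Id cKO against Id control. Leaving out Id control arrays gave medians between -0.12 and 0.048 for Id control against WT, between -0.039 and 0.06 for Id cKO against Id control, and between -0.28 and -0.075 for the untreated heart against Id control. Members reaching a level of 7 numbered 12, against 20 at a level of 6. For the 3 Id cKO hearts against the 3 others, leaving out 1 heart at a time gave 0 to 2 members past limma, the 2 being Cdk6 and Mcm7 without the first Id cKO heart, when array set and group cannot be told apart. Members wholly below the 3 others numbered 8 of 35, where 14.9% of all genes were. They numbered 10 with median centring (12.4% of all genes) and 6 with cyclic loess (13.8%). Mcm4, Mcm5 and Mcm7 were among them under all 3 scalings. Median centring put 21 of 35 members higher in the treated heart, against 15 as deposited, and 52.5% of all genes, against 43.3%. It also put 55.6% of all genes above WT in Id cKO, against 45.3%, and 63.6% in Id control, against 48.4%, while members higher numbered 17 and 19. Of 424 single values recomputed for 26 genes, 363 moved by less than the spread between replicates or stayed 2-fold apart, 60 moved by more, 1 newly passed 2-fold, and none that was 2-fold apart changed sign. Leaving out 1 Id control moves a group mean by less than the spread of that pair, so such values could not count as moved. Some of them changed sign, as Ccnd1 in Id cKO against Id control did, from 0.14 to -0.32 without Id control 2. No paired analysis was possible, since only the Id control group has 2 arrays and the labels give no replicate numbers.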
